A study of Mus musculus with 2 samples.

Results

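The mature microRNAs miR-103-3p and miR-107-3p were followed through a small RNA sequencing comparison of cultured mouse aortic smooth muscle cells. They were found by their exact names and are 2 of the 1909 mature microRNA names in the deposited lists. Male mice, 10 to 12 weeks old, gave the thoracic aortas from which the cells were taken, and the culture medium was DMEM/F-12 supplemented with serum (10% fetal bovine). The diabetic group was db/db, labelled BKS.Cg-m+/+Leprdb/J, which carries only mutant copies of the leptin receptor gene throughout the body, becomes obese and develops type 2 diabetes. The control group was db/+, labelled Lepr+/-, which keeps 1 working copy of that receptor gene. Each group was 1 library, and how many mice or cultures stood behind each is not given in the sources used here. Every difference below is therefore between these libraries, has no replicate check and gives no test of the genotype.

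MicroRNAs guide the Argonaute protein to messenger RNAs that pair with their seed, a short stretch near the 5′ end, and lower the output of those messengers. Both microRNAs sit in introns of pantothenate kinase genes, whose enzymes start the synthesis of coenzyme A. In mouse liver and fat they are known for lowering insulin sensitivity through caveolin-1, a coat protein of membrane pits that is abundant in smooth muscle and fat cells. In human cancer cells they are known to repress Dicer, the enzyme that cuts microRNA hairpins.

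The mature sequences, from RefSeq on GRCm38.p6, are shown because the pair is almost the same molecule and a read can belong to either. Capitals mark the seed, bases 2 to 8 from the 5′ end.
miR-103-3p: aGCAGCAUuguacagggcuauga
miR-107-3p: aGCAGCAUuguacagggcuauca
The seeds are identical, and among 1679 mouse mature names in the RefSeq table these were the only 2 with that seed.

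The 2 molecules share 22 of 23 bases and differ by G22C, with positions counted from 1 at the 5′ end, miR-103-3p first and miR-107-3p second. Here that single base is in capitals.
miR-103-3p: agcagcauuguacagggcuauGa
miR-107-3p: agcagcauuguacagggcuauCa
The first 21 bases are the same. A read that ends before base 22 therefore matches both names, and how such reads were assigned is not given in the sources used here. Among names with 50 counts or more, 11 groups carried exactly the same numbers as each other. Such a group was miR-199b-3p with miR-199a-3p, whose mature sequences are the same, and each had 180274 counts in db/db and 264469 in db/+. It was the only 1 of the 11 whose sequences are known here to be the same. The sequences of miR-374b-5p and miR-374c-5p differ, yet each had 355 counts in db/db and 756 in db/+. A read may therefore stand under more than 1 name. Values of the single members are uncertain for these reasons, and so is their sum, which would hold a shared read more than once if it was counted under both.

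The pair is made by 3 genes, whose hairpins are shown because miR-103-3p has 2 sources that its reads cannot separate. Capitals mark the mature 3p arm in each hairpin.
Mir103-1: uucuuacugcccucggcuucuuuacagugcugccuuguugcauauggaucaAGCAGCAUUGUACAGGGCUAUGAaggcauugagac
Mir103-2: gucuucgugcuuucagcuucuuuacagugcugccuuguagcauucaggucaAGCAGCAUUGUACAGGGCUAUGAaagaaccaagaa
Mir107: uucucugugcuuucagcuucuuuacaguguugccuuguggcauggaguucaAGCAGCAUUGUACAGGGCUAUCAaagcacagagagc
The hairpins of Mir103-1 and Mir103-2 differ at 17 of 86 positions, yet their 3p arms differ at 0 of 23. Each hairpin has 14 bases between its 5p and 3p arms.

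All 3 hairpins lie on the strand of their host gene, inside an intron of the GENCODE M21 annotation on GRCm38, the assembly also called mm10. Mir103-1 is at chr11:35782396-35782481 on the plus strand, in intron 5 of Pank3, and 688 bases separate it from the upstream exon. Mir103-2 is at chr2:131288052-131288137 on the plus strand of Pank2, 454 bases after the upstream exon in 6 of the 7 transcripts that span it. Mir107 is at chr19:34820687-34820773 on the minus strand of Pank1, in intron 5 of transcript Pank1-201 and 326 bases after the upstream exon. Messenger RNA was not measured, so the host genes' own levels are not analysed here.

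Depth was 24295112 counts in the db/db library, with 833 microRNAs detected, and 25915732 counts in the db/+ library, with 881 detected. Members of the let-7 family, with miR-98, took 81.3% of counts in db/db and 81.4% in db/+. Levels below are in CPM, the count of a microRNA per 1000000 microRNA counts of the same library. The smooth muscle markers miR-143-3p and miR-145a-5p summed to 1464 CPM in db/db and 1575 CPM in db/+. The 2 endothelial markers, miR-126a-3p and miR-126a-5p, summed to 2.92 CPM in db/db and 0.270 CPM in db/+. Most of that difference was miR-126a-5p, with 58 counts in db/db and 2 in db/+, beside 13 and 5 for miR-126a-3p. The 3 blood markers summed to 0.576 CPM in db/db and 0.656 CPM in db/+, and the 4 epithelial markers to 0.864 CPM in db/db and 0.232 CPM in db/+. Of striated muscle, miR-133a-3p, miR-208a-3p and miR-499-5p summed to 0.165 CPM in db/db and 0.232 CPM in db/+. That sum does not stand for all microRNAs known from striated muscle, and 2 others were added after their values were seen. Of these, miR-206-3p had 2764 CPM in db/db and 2473 CPM in db/+, above the smooth muscle sum in both libraries. The other, miR-1a-3p, had 68.5 CPM in db/db and 35.5 CPM in db/+. The blood markers miR-142a-3p and miR-223-3p and the striated muscle marker miR-208a-3p had 0 counts in both libraries. Of the epithelial markers, miR-141-3p had 0 counts in db/db and miR-200b-3p had 0 in db/+. The fat and liver markers miR-378a-3p and miR-122-5p summed to 24.2 CPM in db/db and 14.1 CPM in db/+. The part of these other cell types in the results below was not tested.

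Both microRNAs were abundant in both libraries and had a lower level in the db/db library. The more abundant, mmu-miR-103-3p, had 88275 counts in the db/db library and 125524 in the db/+ library. This was 3633 CPM (95% Poisson interval 3610 to 3658) in db/db and 4844 CPM (4817 to 4870) in db/+. The ratio of db/db over db/+ was 0.750, with an exact conditional 95% interval of 0.744 to 0.757, and the log2 ratio was -0.41. The level in db/db was thus 25.0% lower than in db/+. Intervals cover counting error only, since the labels name no molecular identifiers that would tell PCR copies from molecules, and they say nothing of the spread between mice or cultures. In bulk RNA, fewer cells with a microRNA and less of it per cell cannot be told apart.

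Its partner, mmu-miR-107-3p, had 10884 counts in the db/db library and 14800 in the db/+ library. Its level was 448 CPM (439.6 to 456) in db/db and 571 CPM (562 to 580.4) in db/+. The ratio was 0.784 (95% interval 0.765 to 0.804) and the log2 ratio -0.35, so the level in db/db was 21.6% lower than in db/+. Counting intervals of the libraries did not overlap for either microRNA. How common such a gap was among all microRNAs was not counted. A ratio interval clear of 1, a related but less strict measure, was common at such depth and does not set the pair apart. Of the 356 microRNAs past the count floor described below, 157 had a ratio interval wholly below 1 and 113 wholly above 1.

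Added up, the pair had 99159 counts in db/db and 140324 in db/+. This was 4081 CPM in db/db and 5415 CPM in db/+, a ratio of 0.754 (0.748 to 0.760). The pair made up 0.408% of all microRNA counts in db/db and 0.541% in db/+. Outside the let-7 family, which dominated both libraries, it made up 2.18% of counts in db/db and 2.92% in db/+.

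**Figure D1:**
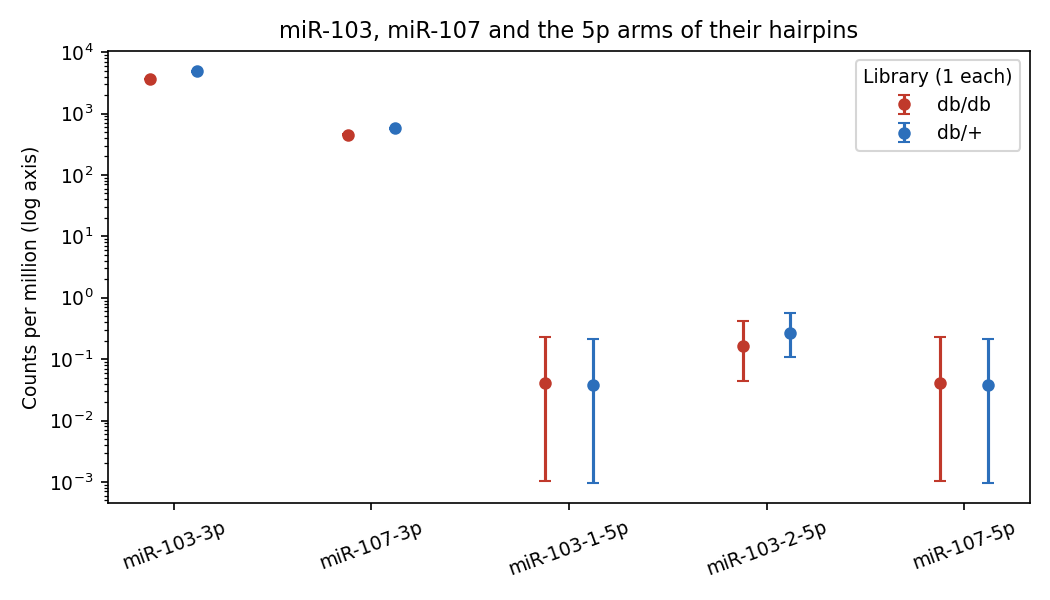
Levels of miR-103-3p, miR-107-3p and the 5p arms of their hairpins in the db/db library (left point, red) and the db/+ library (right point, blue), in CPM on a log axis; bars are 95% Poisson intervals for counting error, hidden by the points of the 3p arms. The 3p arms stand at 3633 and 448 CPM in db/db and at 4844 and 571 CPM in db/+, while every 5p arm is below 1 CPM.

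Neither ratio was large for this comparison. A microRNA was counted as past the size rule when its ratio was at least 2 or at most 0.5 and it had at least 50 counts in at least 1 library. Of the 356 microRNAs with that many counts, 48 had a ratio of at most 0.5, which is 13.5%, and 0 of the 2 members did. A ratio of at least 2 was met by 16, or 4.49%, and by 0 of the 2 members. A ratio of at most 1/1.5 was met by 24.2% of microRNAs and again by 0 of the 2 members. A ratio below 1 was common, at 57% of microRNAs, and a whole interval below 1, as both members had, was met by 44.1%. Those shares are the background against which the members' direction is read, and the direction by itself did not set them apart. The shares count names, and 24 of the 356 names fell in the 11 groups with the same numbers as each other. Some reads may therefore enter the background more than once.

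In the order of ratios, 114 of the 356 microRNAs had a lower ratio than miR-103-3p and 126 had a lower ratio than miR-107-3p. The median ratio of the 356 was 0.908. Relative to that median, the ratio of miR-103-3p was 0.826 and that of miR-107-3p was 0.864. Next to miR-103-3p in the order stood miR-23b-3p (0.741) and miR-467a-3p (0.744) below and miR-98-5p (0.755) and miR-299a-5p (0.755) above. Next to miR-107-3p stood miR-872-5p (0.769) and miR-130b-3p (0.777) below and miR-872-3p (0.787) and miR-154-3p (0.788) above. Among the 50 most abundant microRNAs by mean CPM, 24 had a ratio below 1, the range ran from 0.264 to 1.79, and miR-103-3p and miR-107-3p were at places 12 and 13 from the lowest.

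**Figure D2:**
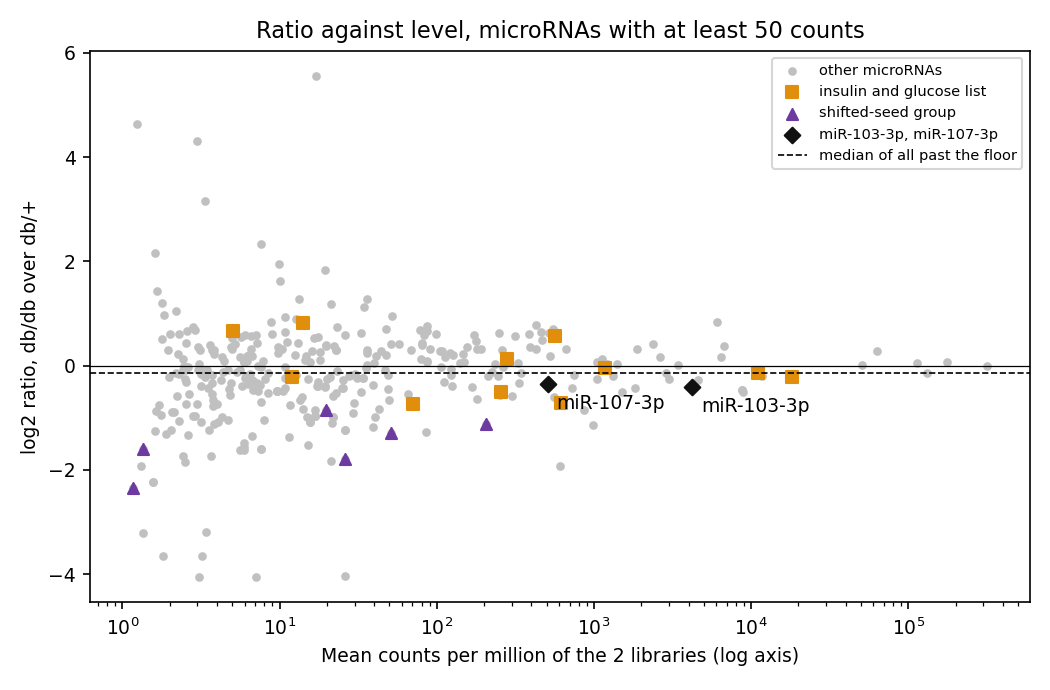
Log2 ratio of db/db over db/+ against mean level in CPM (log axis) for the 356 microRNAs past the 50-count floor; the dashed line is their median log2 ratio, -0.14, and colours mark the members and the lists described in the text. Both members, at -0.41 and -0.35, lie a little below the dashed line and inside the spread of microRNAs of similar level.

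In the order of levels, miR-103-3p was at place 17 in db/db and at place 16 in db/+. In both libraries let-7i-5p stood directly above it, with 4152 CPM in db/db and 5009 CPM in db/+. Directly below it stood miR-125b-5p at 3443 CPM in db/db and miR-10a-5p at 4329 CPM in db/+. Counting intervals separated miR-103-3p from each of these neighbours.

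The place of miR-107-3p was 48 in db/db and 41 in db/+. In db/db its interval overlapped those of both neighbours, miR-541-5p at 463.5 CPM and miR-26a-5p at 441 CPM. In db/+ its neighbours were miR-125a-5p at 594 CPM and miR-744-5p at 489 CPM, and neither interval overlapped its own.

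Likeness of level was measured over the 2 libraries as the distance between log2(CPM + 0.5) values. The 3 microRNAs nearest to miR-103-3p were let-7i-5p, with a ratio of 0.829 (0.822 to 0.836), miR-125b-5p, with 1.01 (1.001 to 1.02), and miR-191-5p, with 0.837 (0.828 to 0.845). The 3 nearest to miR-107-3p were miR-26a-5p, with a ratio of 0.661 (0.645 to 0.677), miR-744-5p, with 1.14 (1.11 to 1.17), and miR-26b-5p, with 0.605 (0.591 to 0.619). All 3 near miR-103-3p had a higher ratio than it did, while those near miR-107-3p lay on both sides of it. With only 2 libraries this likeness describes level and nothing more.

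The proportion of the pair that carried the miR-107 name was nearly the same in both libraries, and it does not depend on scaling. It was 11.0% (exact binomial 95% interval 10.8 to 11.2) in db/db and 10.5% (10.4 to 10.7) in db/+. There were 8.11 counts of miR-103-3p per count of miR-107-3p in db/db and 8.48 in db/+. The odds of miR-107-3p against miR-103-3p were 1.05 times higher in db/db than in db/+ (exact conditional 95% interval 1.02 to 1.07). That interval excludes 1 for counting error, and the share differed by 0.43 percentage points. The assignment of short reads to the 2 names bears on this proportion and its part was not tested.

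The passenger strands, the 5p arms that are usually discarded when a hairpin is loaded, were almost absent. Their sequences are shown because they differ between all 3 hairpins, whereas Mir103-1 and Mir103-2 have the same 3p arm. The seed is in capitals.
miR-103-1-5p: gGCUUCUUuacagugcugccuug
miR-103-2-5p: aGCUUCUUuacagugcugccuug
miR-107-5p: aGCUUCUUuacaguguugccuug
From miR-103-1-5p to miR-103-2-5p the change is G1A, and from miR-103-2-5p to miR-107-5p it is C16U.

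Of the 5p arms, miR-103-2-5p had 4 counts in db/db and 7 in db/+, a ratio of 0.610 (0.131 to 2.40). The 5p arm of the other miR-103 hairpin, miR-103-1-5p, had 1 count in db/db and 1 in db/+, and so did miR-107-5p, each with a ratio of 1.07 (0.0136 to 83.7). None of the 3 reached the 50-count floor. Summed, the 5p arms had 6 counts in db/db and 9 in db/+, a ratio of 0.711 (0.208 to 2.24). A difference in the passenger strands was not detectable at this depth, and the counts are too few to apportion miR-103-3p between Mir103-1 and Mir103-2.

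Nearly all counts of these hairpins were on the 3p arm. Of the counts on the miR-103 hairpins, 0.00566% (exact binomial 95% interval 0.00184 to 0.0132) were on 5p arms in db/db and 0.00637% (0.00275 to 0.0126) in db/+. For miR-107 the share was 0.00919% (0.000233 to 0.0512) in db/db and 0.00676% (0.000171 to 0.0376) in db/+. For the 35 hairpin names whose arms summed to 10000 counts or more in both libraries, the median share of the minor arm was 0.0984% in db/db and 0.198% in db/+. On that scale miR-107 was at place 10 from the lowest in db/db and at place 10 in db/+.

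Other microRNAs tied to insulin and glucose varied on both sides of 1. The list held 16 names, of which 13, the pair among them, had at least 50 counts, 9 had a ratio below 1 and 4 above, beside 57% of all 356 below 1, so the count was near the background. In the list 0 of the 13 were past the size rule, beside 13.5% at most 0.5 and 4.49% at least 2 over all. Its median log2 ratio was -0.21, beside -0.14 over all 356. Without the pair, 7 of 11 were below 1 and the median was also -0.14. Of the remaining names, miR-375-3p, known from pancreatic islets, had 0 counts in db/db and 5 in db/+, while miR-802-5p, known from livers of obese mice, and the myeloid miR-223-3p had 0 in both. A count of 0 allows up to 0.123 CPM in db/db and 0.116 CPM in db/+, taking 3 counts as the limit.

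Among the lower members of that list, miR-29c-3p had 52.6 CPM in db/db and 88.2 CPM in db/+, a ratio of 0.597 (0.557 to 0.640). A ratio of 0.702 (0.678 to 0.727) was measured for miR-29b-3p and 0.860 (0.857 to 0.864) for miR-29a-3p, of the family raised in tissues of diabetic rodents. The value for miR-26b-5p, given above, was close to that of miR-29c-3p. The most abundant after miR-29a-3p was miR-320-3p, known from insulin-resistant fat cells, with 0.908 (0.903 to 0.913). The pair lay between miR-29b-3p and miR-29a-3p. For miR-33-5p, from an intron of the cholesterol regulator gene Srebf2, the ratio was 0.862 and its interval of 0.731 to 1.01 included 1. The ratio of miR-143-3p was 0.971 (0.956 to 0.987), and it lay above 1 under 5 of the 6 other scalings.

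The list's higher members were miR-122-5p, a liver microRNA of lipid metabolism, at 1.76 (1.51 to 2.06), miR-378a-3p, from the Ppargc1b gene of energy metabolism, at 1.59 (1.23 to 2.07), miR-181b-5p at 1.48 (1.45 to 1.52) and miR-27b-3p at 1.10 (1.06 to 1.13). The level of miR-122-5p was 18.0 CPM in db/db and 10.2 CPM in db/+, and that of miR-378a-3p 6.22 CPM in db/db and 3.90 CPM in db/+. Both were far below the level of the pair.

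**Figure D3:**
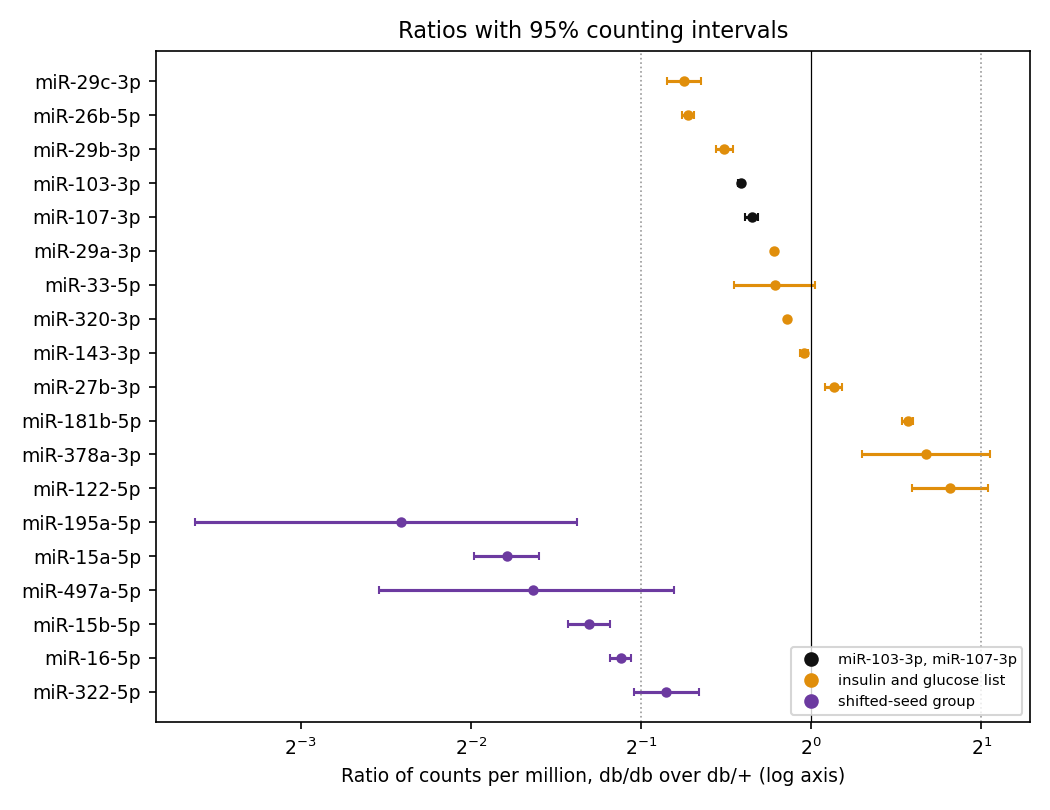
Ratios of CPM, db/db over db/+, on a log axis with 95% counting intervals, for the insulin and glucose list (upper rows) and the miR-15/16 group with the shifted seed (lower rows); dotted lines mark ratios of 0.5 and 2. The pair, at 0.750 and 0.784, lies inside the range of the insulin list, 0.597 to 1.76, and above the whole shifted-seed group, 0.188 to 0.554.

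A close relative in sequence is the miR-15/16 family, known for restraining cyclins and the cell cycle. Its seed has the letters AGCAGCA, which also open miR-103-3p and miR-107-3p, but 1 base earlier. The families are known to share some targets. The shared letters are in capitals, starting at base 1 in the pair and at base 2 in the others.
miR-103-3p: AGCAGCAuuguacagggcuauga
miR-107-3p: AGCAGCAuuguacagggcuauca
miR-16-5p: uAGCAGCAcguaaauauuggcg
miR-15a-5p: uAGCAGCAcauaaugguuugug
miR-15b-5p: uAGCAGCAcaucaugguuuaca
miR-195a-5p: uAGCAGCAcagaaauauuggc
miR-497a-5p: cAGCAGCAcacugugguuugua
miR-322-5p: cAGCAGCAauucauguuuugga

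In these libraries the shifted-seed microRNAs were far less abundant than the pair and had lower ratios. Summed over 6 names they had 186 CPM in db/db and 423 CPM in db/+, against 4081 CPM in db/db and 5415 CPM in db/+ for the pair. All 6 had ratios below 1, beside 57% of all 356 microRNAs, and 5 of 6 were at most 0.5, beside 13.5%. The median log2 ratio was -1.45 in the group and -0.14 over the 356. These counts lean on the floor, since miR-195a-5p (9 counts in db/db, 51 in db/+) and miR-497a-5p (16 and 53) passed it only through db/+. Such entry favours a low ratio. At a floor of 100 counts 4 names remained, 4 below 1 and 3 at most 0.5, with a median log2 ratio of -1.21. Over all microRNAs at that floor, 35 were at most 0.5 and the median log2 ratio was -0.14. The background shares at that floor were not computed. The most abundant, miR-16-5p, had 129 CPM in db/db and 281 CPM in db/+, a ratio of 0.461 (0.442 to 0.480). The ratio of miR-322-5p was 0.554 (0.485 to 0.633). Intervals of all 6 ended below those of miR-103-3p and miR-107-3p.

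Base composition moved with the ratio across microRNAs, and the pair sat in the middle of it. A RefSeq mature sequence was matched for 286 of the 356 microRNAs. Across these the log2 ratio was higher by 0.25 for each 10 percentage points of G and C bases, with a Pearson correlation of 0.267 given as a description, since microRNAs of 1 pair of libraries are not replicates. Both miR-103-3p and miR-107-3p have 47.8% G and C, equal to the median of the 286. For the 113 microRNAs with 45.5% to 54.5% G and C, the pair included, the median log2 ratio was -0.07, and 59 had a ratio below 1. Length was also common to the pair, at 23 bases. Over the 49 mature forms of 23 bases, the pair included, the median ratio was 0.906 and 28 had a ratio below 1.

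**Figure D4:**
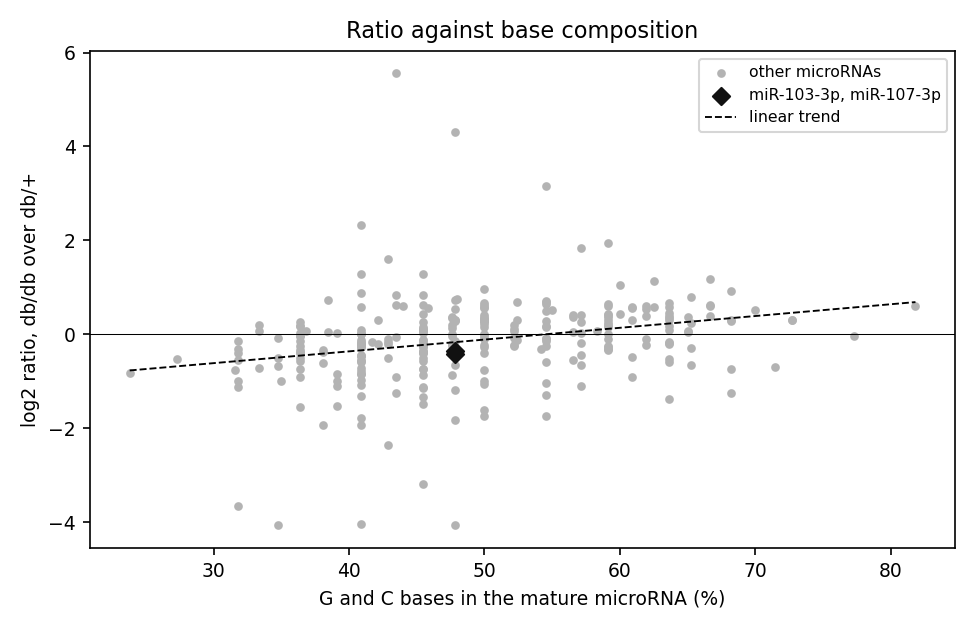
Log2 ratio, db/db over db/+, against the percentage of G and C bases in the mature microRNA for 286 microRNAs past the 50-count floor; the dashed line is a linear trend. The overlapping diamonds of miR-103-3p and miR-107-3p, both at 47.8%, lie slightly below the line.

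The choice of scaling changed the size of the difference and not its direction. Over the total of all counts and 6 other scalings, the ratio of miR-103-3p ran from 0.746 to 0.802 and that of miR-107-3p from 0.780 to 0.839. The lowest values came with the let-7 family left out of the total and the highest with upper-quartile factors. For each microRNA this range was wider than its counting interval, so the scaling moved both ratios by more than counting error did.

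**Figure D5:**
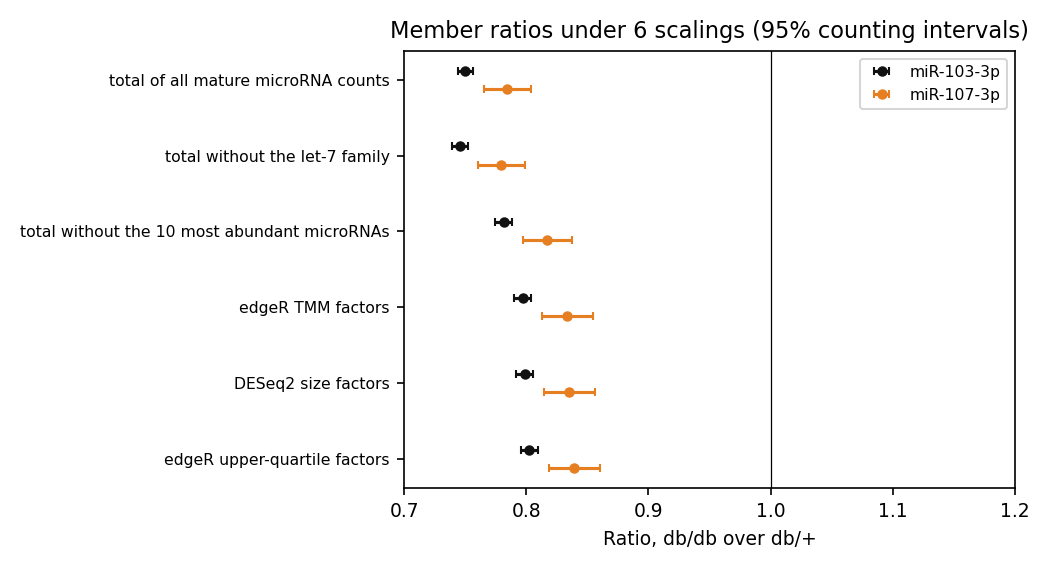
Ratio of db/db over db/+ for miR-103-3p (black) and miR-107-3p (orange) under 6 scalings computed from the raw counts, with 95% counting intervals; the vertical line marks a ratio of 1. Every interval ends below 1, and miR-103-3p is the lower of the pair in each row.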

How the data were processed

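Small RNA libraries, 1 per group, were analysed from deposited lists of 1909 mature microRNA names. The files hold, per the file headers, raw counts of reads and reads that the authors scaled by TMM (trimmed mean of M values, which takes most microRNAs as unchanged). The scaled column, whole numbers as deposited, was treated as a score and used in 1 alternative scaling. For the pair it equalled raw counts multiplied by 1.06 in db/db and 0.939 in db/+. Novoalign, edgeR and mm10 are named in the submitters' processing notes, without version or role. Per the labels' protocols, RNA was extracted on Qiagen columns. Trimming, mismatch limits, the microRNA catalogue and treatment of reads matching several names are not given in the sources used here.

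Counts were scaled to the library total (CPM). A design of 1 library per group has 0 residual degrees of freedom. The edgeR quasi-likelihood test therefore had no fit, and no p-value is given. Ratios carry exact conditional (Clopper-Pearson) intervals, shares exact binomial ones and levels exact Poisson ones, at 95%, for counting error only. Log2 ratios had 0.5 counts added. Alternatives used edgeR 4.0.16 and DESeq2 1.42.0 factors in R 4.3.3. The ratio computation was tested on simulated counts for db/db over db/+ with 1909 microRNAs: 95.3% of intervals held the simulated ratio among 341 past the floor. The simulated counts had Poisson error alone, which is the error the intervals assume. The result thus checks the computation and says nothing of PCR copies, shared reads or spread between cultures.

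The members and lists were chosen with earlier results of these data known. Named microRNAs were the pair, its 5p arms, list members with at least 50 counts in a library, the 3 nearest by level, the 2 above and 2 below in ratio, markers, and the neighbours in the order of levels; the last, miR-199a-3p, miR-199b-3p, miR-206-3p, miR-1a-3p and list names under the floor were added after their values were seen, as were the 50 most abundant and the arm shares of 35 hairpin names. Sequences are from RefSeq (GRCm38.p6), matched for 1623 of the 1909 names.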

Additional observations from a re-analysis of the deposited data

How the results depend on the processing

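Both members and their sum kept a ratio below 1 under all alternatives run. For miR-103-3p, miR-107-3p and their sum the ratio was 0.797, 0.834 and 0.801 with edgeR TMM factors, 0.799, 0.835 and 0.802 with DESeq2 size factors, 0.802, 0.839 and 0.806 with upper-quartile factors, 0.781, 0.817 and 0.785 without the 10 most abundant microRNAs, and 0.797, 0.833 and 0.801 with the deposited TMM reads. Relative to the median of other mature forms of the same length, which was chosen after seeing the data, the ratio was 0.796 for miR-103-3p and 0.832 for miR-107-3p. Those scalings shifted all log2 ratios by 0.06 to 0.10, and leaving out let-7 by -0.0089. Removing a trend on G and C content, also chosen after seeing the data, could not move the members, since they sit at the median on which it was centred. Adding 0.1 or 5 counts, and the deposited reads for the miR-107 share and the passenger share, moved no value beyond its interval. These settings could move little. The added counts were small beside those of the pair, and a factor common to a whole library leaves shares within it unchanged, apart from rounding.

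The number past the size rule was 46 higher and 91 lower at a floor of 10 counts, 171 and 259 with no floor, and 48 and 86 with 1.5-fold limits, by construction. In the insulin and glucose list, 1 name (miR-375-3p) was past the rule with no floor, and the median log2 ratio was -0.13 with edgeR TMM and -0.12 with DESeq2 factors. In the shifted-seed group 3 were at most 0.5 at a floor of 100 counts, where 4 remained, beside 35 over all microRNAs at that floor. The ratio of miR-143-3p reversed, at 1.03 with edgeR TMM, DESeq2 and deposited TMM reads, 1.04 with upper-quartile factors and 1.01 without the 10 most abundant. Apart from the scaling shift and the thresholds, the cause was not tested. Over the single microRNAs tried besides the pair, miR-143-3p included, 70 alternative values left their counting interval without reversing, 5 reversed and 105 stayed inside. No paired analysis was possible because there is a single library for either genotype, so none could be left out either.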
